A study of Mus musculus with 16 samples.

Results

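The effect of losing BLT1 on the silica-exposed mouse lung was read from whole-lung RNA at day 2 after crystalline silica (CS), a mineral dust that inflames the airspaces. The comparison set 3 BLT1-/- lungs against 3 BLT1+/+ lungs, chosen by their sample titles, which is 6 of the 16 arrays in the series, over 19938 genes. All were C57BL/6 mice of 10 to 12 weeks, kept specific-pathogen-free, that received CS through the trachea; none of these 6 carried the KRasLA1 tumor allele. The matching day 2 controls are 1 array per genotype of RNA pooled from 3 mice given phosphate-buffered saline (PBS). A further genotype comparison came from other mice, 3 BLT1-/-KRasLA1 against 3 BLT1+/+KRasLA1 lungs at day 60 after CS, where the later day and the tumor allele go together and cannot be told apart. The labels call the lungs biological replicates and name no animals, so the tests below know only the spread between these samples, which may be partly technical. They do not say how the BLT1 allele was made.

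BLT1, encoded by Ltb4r1 on chromosome 14, is the high-affinity receptor for leukotriene B4, a lipid made from arachidonic acid by 5-lipoxygenase, its activating protein and leukotriene A4 hydrolase. The receptor couples to inhibitory G proteins and steers neutrophils, and also eosinophils, monocytes and some T cells, towards the source of the lipid. In the lung, macrophages and neutrophils are known producers of leukotriene B4, and neutrophils that arrive early release more of it, which draws in others.

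Values are log2 expression levels, so a difference of 1 is a doubling, and every difference below is BLT1-/- minus BLT1+/+ with its standard error. The array medians lay between 8.25 and 8.34 across the 16 arrays. The surfactant gene Sftpc lay at the 99.985th percentile of all genes, the club cell gene Scgb1a1 at the 99.98th and the alveolar type 1 gene Ager at the 99.7th. Pairs of the 6 arrays differed by an SD of 0.148 to 0.272 over genes. On the first principal component of the 6 arrays, which held 33.3% of the variance, BLT1-/- replicate 3 (0.722) and BLT1+/+ replicate 1 (-0.587) lay farthest apart, and neither genotype formed a group of its own.

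The targeted gene was measured at a low level. Ltb4r1, at the 26.4th percentile of all genes, read 7.56, 7.59 and 7.63 in the BLT1+/+ lungs and 7.35, 7.42 and 7.43 in the BLT1-/- lungs. The genotypes did not overlap, yet the difference of -0.19 ± 0.08 did not pass the test (limma, adjusted p = 0.522). In the PBS pools it read 7.40 in BLT1+/+ and 7.56 in BLT1-/-. It is not known here whether its probes lie inside the disrupted part of the gene, so these levels do not check the labels. Its nearest measured neighbours on the chromosome, Nop9 (0.23 ± 0.09), Cideb (0.27 ± 0.15) and Dhrs1 (-0.04 ± 0.06), did not pass the test either.

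Few genes differed between the genotypes beyond the spread between lungs. Of the 19938 genes, 4 passed at an adjusted p of 0.05 (0.0201%), all of them lower in BLT1-/- lungs: Ddhd1, Tmem260 and Ear6, which share chromosome 14 with Ltb4r1, and Ngp on chromosome 9. No gene passed as higher. Without adjustment, 1735 genes (8.7%) had a p under 0.05, 940 of them higher (4.71%) and 795 lower (3.99%), and the lungs of the genotypes did not overlap at 2481 genes (12.4%), 1258 with BLT1-/- lungs higher (6.31%) and 1223 with them lower (6.13%). At least a 1.5-fold difference was seen for 47 genes lower in BLT1-/- lungs (0.236%) and 19 higher (0.0953%). The median difference over all genes was 0.01.

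Lungs with the same replicate number deviated together from their group means, so a fit with that number as a block was read beside the first. The labels do not say what the number stands for, and the deviations come from the same 6 arrays as the test. The block fit called 21 genes (0.105%), 10 higher (0.0502%) and 11 lower (0.0552%), among them the 4 genes above. Of these, 5 lie on chromosome 14 and 16 elsewhere. At 19 of the 21 the lungs of the genotypes did not overlap (12.4% over all genes), but they were selected on the same lungs. In a fit of the 6 arrays alone 2 genes passed (0.01%), Rnase2a and Myh7, both higher and both on chromosome 14, and the 4 genes above did not.

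On chromosome 14, Ddhd1 and Tmem260 fell in the silica lungs without BLT1, and the PBS pools differed by similar amounts. Ddhd1, a phospholipase that releases fatty acid from phosphatidic acid, read 11.25, 11.42 and 11.40 in BLT1+/+ lungs and 10.60, 10.70 and 10.77 in BLT1-/- lungs. It fell by 0.66 ± 0.07, or 1.58-fold (adjusted p = 0.00409), and the BLT1-/- PBS pool was lower than the BLT1+/+ pool by a like amount (-0.65). At day 60 in KRasLA1 lungs it fell by 0.58 ± 0.07 (adjusted p = 0.00513).

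Tmem260, a membrane O-mannosyltransferase, read 10.36, 10.55 and 10.32 in BLT1+/+ lungs against 9.83, 9.83 and 9.77 in BLT1-/- lungs. Again no lung of one genotype reached the range of the other. It fell by 0.60 ± 0.07, or 1.52-fold (adjusted p = 0.00868), while the difference was -0.53 between the PBS pools and -0.48 ± 0.07 at day 60 (adjusted p = 0.0296). Without BLT1-/- replicate 1 or 2 its adjusted p was 0.0594 or 0.0634; Ddhd1 passed without each lung in turn.

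Ear6, a secreted ribonuclease of the eosinophil-associated family, had the larger fall. It read 7.97, 8.53 and 8.71 in BLT1+/+ lungs and 7.11, 6.998 and 7.32 in BLT1-/- lungs. It fell by 1.26 ± 0.18, or 2.40-fold (adjusted p = 0.0351). In the KRasLA1 lungs of day 60 it fell by 1.78 ± 0.18 (adjusted p = 0.00269). Unlike the other pair it differed little between the PBS pools, at 7.76 and 7.61. The family holds near-identical copies that a probe set can share, so the reading is uncertain as to the copy. Without BLT1-/- replicate 1 or 2, or BLT1+/+ replicate 2 or 3, its adjusted p ran from 0.0952 to 0.284.

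A relative on the same chromosome had higher values in BLT1-/- lungs. Rnase2a, another eosinophil-type ribonuclease with close copies, lay between 6.03 and 6.87 in BLT1+/+ lungs and read 8.42, 8.54 and 9.09 in BLT1-/- lungs. This was the largest difference among all genes, 2.18 ± 0.57, but it did not pass over all 16 arrays (adjusted p = 0.258); it passed in the fit of the 6 arrays alone (adjusted p = 0.0412). The PBS pools read 6.08 and 8.04, so the offset was also present without silica. At day 60 the difference was 0.00, over KRasLA1 lungs that ranged from 9.97 to 12.7 and enter its variance estimate.

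**Figure D1:**
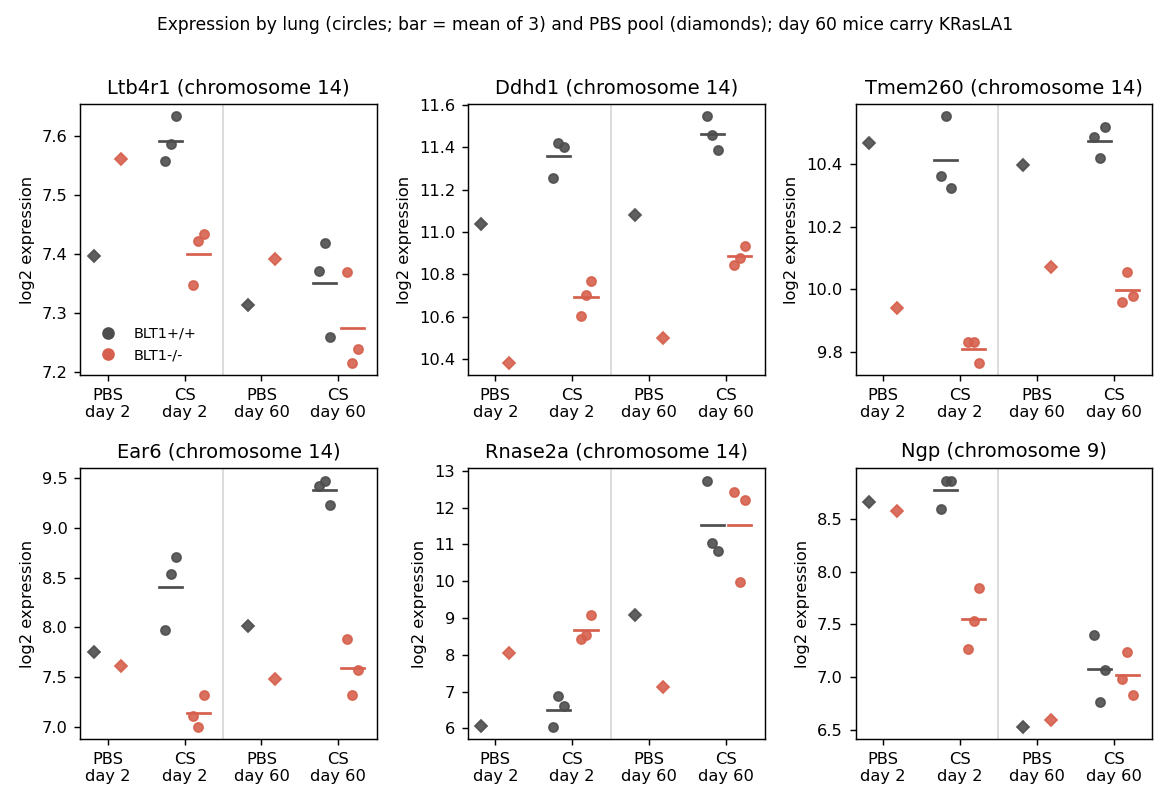
Log2 expression level of Ltb4r1, Ddhd1, Tmem260, Ear6, Rnase2a and Ngp in each silica lung (circles, with the mean of 3 lungs as a bar) and each PBS pool (diamonds), by BLT1 genotype at day 2 and at day 60, where the lungs also carry KRasLA1. Ddhd1 and Tmem260 are lower in BLT1-/- samples of every kind, Ear6 in the silica lungs of both days, and Ngp in the day 2 silica lungs, where no BLT1-/- lung exceeds 7.85 and no BLT1+/+ lung lies under 8.60.

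Counted with these genes, a larger share of chromosome 14 genes differed than of genes elsewhere, and part of the differences had the same sign in other mice. Of its 698 genes, 94 (13.5%) had an unadjusted p under 0.05 against 1641 (8.53%) of the genes elsewhere, and 13 (1.86%) against 75 (0.39%) had a p under 0.001. Of the 94, 61 had the same sign at day 60 (64.9%), where elsewhere 776 of 1638 did (47.4%). Between the day 2 PBS pools, 77 of the 94 (81.9%) and 1194 of the 1638 (72.9%) had the same sign as in the day 2 silica lungs. Over all 698 genes the day 2 and day 60 differences correlated at 0.29 (Pearson) and 0.03 (Spearman), a description across genes, which are not independent replicates. At day 60 itself, 810 genes (4.06%) had a p under 0.05, and a p under 0.001 was reached by 15 chromosome 14 genes (2.15%) and 9 others (0.0468%). The 8 genes called at day 60 (0.0401% of all genes), 3 higher (0.015%) and 5 lower (0.0251%), all lie on chromosome 14: Ddhd1, Ear6, Klhl33, Lrrc18, Rnase1, Rnase2b, Syt15 and Tmem260. The day 60 lungs share no array with the day 2 lungs, though each gene has one variance estimate for both.

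A p under 0.05 with the same sign on both days was reached by 26 chromosome 14 genes (3.72%), and by 27 of the 19155 genes with a known place on other chromosomes (0.141%). Opposite signs at such a p on both days were seen for 4 and 37 genes. They lay from 256 measured genes before Ltb4r1 to 137 after it, 21 on the first side and 5 on the second, and none lay among the 93 genes at the near end of the chromosome or the 104 at its far end. Among the 10 measured genes on either side of Ltb4r1 none was of this kind. Every BLT1-/- lung carries the null allele on this chromosome, so loss of BLT1 and any difference in the DNA around the allele cannot be told apart in this design.

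Of these 26 genes, 18 were lower in BLT1-/- lungs. Pnp, which breaks down purine nucleosides, differed by -0.38 ± 0.08 at day 2 and -0.30 at day 60, and the antimicrobial ribonuclease Rnase6 by -0.50 ± 0.11 and -0.38. Sncg, a synuclein, differed by -0.43 on both days, and Syt15, of the synaptotagmin family, by -0.47 and -1.05. Among the 8 higher genes, Mtmr9, a phosphatase-like regulator of membrane lipids, differed by 0.48 ± 0.07 at day 2 and 0.39 at day 60. Gdf10, a growth factor of the bone morphogenetic protein family, differed by 0.65 ± 0.11 and 0.29, and Myh7, a heart and slow muscle myosin, by 0.79 ± 0.17 and 0.61. With the replicate block Mtmr9 (adjusted p = 0.0442) and Gdf10 (adjusted p = 0.0486) rose. The PBS pools differed by 0.24 at Mtmr9 and 0.43 at Gdf10.

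The day 60 groups also differed at sex-linked genes. BLT1+/+KRasLA1 replicate 2 read 6.61 at Xist, the RNA that silences an X chromosome in females, and 10.27 at the Y-linked gene Uty, where the other day 60 silica lungs read at least 12.75 and at most 5.97. The 4 measured sex-linked genes had a median difference of -1.24 at day 60 and of -0.01 at day 2. Without this lung, which was left out after seeing the data, 6 genes were called at day 60, all on chromosome 14. Tmem260 (adjusted p = 0.0937), Lrrc18 (0.104) and Rnase1 (0.126) were then no longer called there, and Myh7 rose by 0.88 ± 0.09 (adjusted p = 0.00871). Because the lung also enters the variance of the day 2 test, Ear6 missed the threshold there without it (adjusted p = 0.0524) and Myh7 passed it (0.00555), which left 4 calls, 3 lower and 1 higher. Genes with an unadjusted p under 0.05 at day 60 then numbered 518, and 24 chromosome 14 genes had such a p on both days with the same sign.

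**Figure D2:**
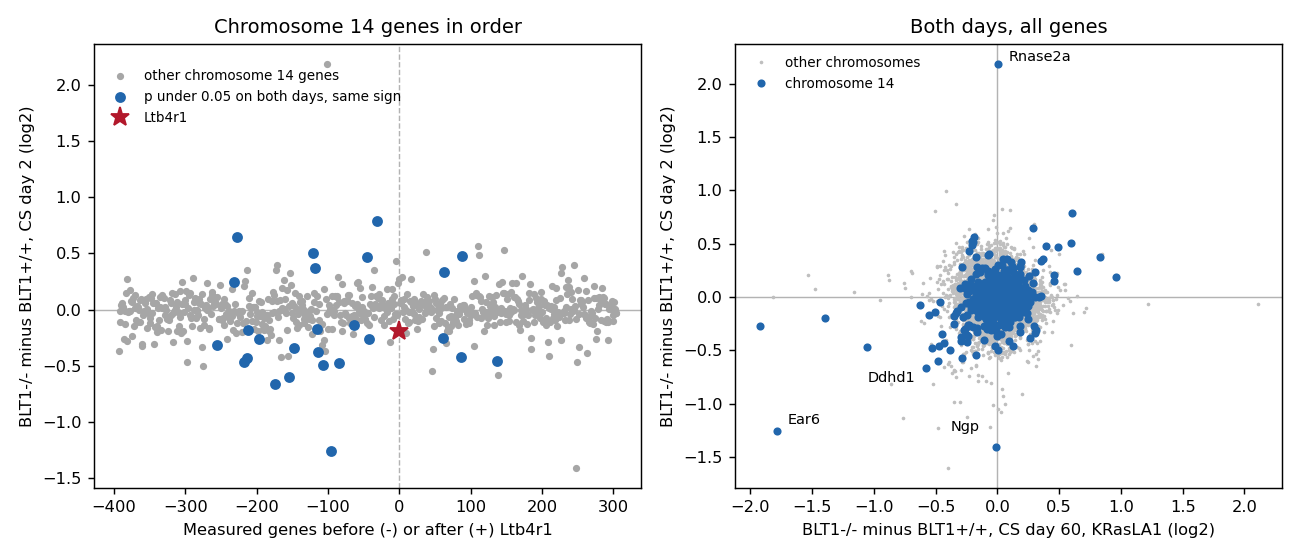
Left, the day 2 BLT1-/- minus BLT1+/+ difference (log2) of the 698 chromosome 14 genes in their order along the chromosome, counted in measured genes from Ltb4r1 at 0. Right, the day 2 difference (vertical axis) against the day 60 difference (horizontal axis) of every gene, with chromosome 14 genes marked. Ddhd1, Ear6 and Tmem260, the last without a label, lie low on both axes, and Ngp only on the day 2 axis.

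Outside chromosome 14, Ngp was the gene that fell. It encodes neutrophilic granule protein, a cathelicidin-related protein of the secondary granules that is transcribed while neutrophils mature in the marrow. It read 8.60, 8.86 and 8.87 in BLT1+/+ lungs and 7.27, 7.54 and 7.85 in BLT1-/- lungs. It fell by 1.22 ± 0.17, or 2.34-fold (adjusted p = 0.0351; 0.0318 with the replicate block). The PBS pools read 8.66 and 8.58, so the 3 BLT1-/- silica lungs stood below all the other day 2 samples. Without BLT1-/- replicate 1 or 2, or BLT1+/+ replicate 2 or 3, its adjusted p ran from 0.0952 to 0.284.

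The difference in Ngp was not seen at day 60 (-0.06 ± 0.17), and the day 2 difference minus the day 60 difference was -1.16 with an unadjusted p of 0.000334 (adjusted p = 0.664). Its response to silica differed between the genotypes by -1.14 ± 0.34 (unadjusted p = 0.00535, adjusted p = 0.82), each set against 1 pool. Neither comparison called any gene in limma: 1414 genes (7.09%) and 896 genes (4.49%) had an unadjusted p under 0.05. The 200 bases before the RefSeq start of Ngp (GRCm38.p6) are shown because it is the one called gene away from the allele's chromosome. Capitals mark matches, on either strand, to TTGCNNAA, a short form of the site bound by C/EBP factors, which drive granule genes.

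Ngp, chr9:110419608-110419807, plus strand: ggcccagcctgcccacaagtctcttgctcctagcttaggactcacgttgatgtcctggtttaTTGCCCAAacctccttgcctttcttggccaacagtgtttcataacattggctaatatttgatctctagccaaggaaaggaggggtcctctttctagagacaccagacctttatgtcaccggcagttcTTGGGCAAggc

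The match nearest the start ends a few bases before it. TTGCNNAA occurs in a RefSeq promoter, taken as the 300 bases around a start, of 12.2% of 27025 genes. It occurs in 7 of the 18 neutrophil marker genes with a promoter sequence (38.9%), Camp not among them. The motifs were searched after the values were seen and describe the letters only.

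Most neutrophil markers were lower in BLT1-/- lungs, by less than Ngp. Of the 19 measured, 17 were lower, 6 with an unadjusted p under 0.05, and their median difference was -0.26 against 0.01 over all genes; only Ngp was called. Between the PBS pools the median was 0.34, with 17 of the 19 higher in BLT1-/-, and at day 60 it was 0.03. In a bulk sample fewer cells of a type and less RNA per cell cannot be told apart. Cd177, a surface protein of mature neutrophils, read 9.81, 10.00 and 10.01 in BLT1+/+ lungs and 9.47, 9.42 and 9.38 in BLT1-/- lungs (-0.51 ± 0.14). Camp, the cathelicidin of the same granules as Ngp, differed by -0.34 ± 0.10, Hdc, which makes histamine, by -0.32 ± 0.11, and Lcn2, an iron-trapping granule protein that airway cells also make, by -0.12 ± 0.05.

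The most abundant markers overlapped between the genotypes. S100a8, a subunit of calprotectin, read 11.32, 11.96 and 12.31 against 11.47, 11.86 and 11.31, and its partner S100a9 differed by -0.26 ± 0.35. The proteases Mmp8 and Mmp9 differed by -0.28 ± 0.35 and 0.18 ± 0.19. Ly6g, the classic surface marker, was low in BLT1-/- replicates 1 and 3 (8.71 and 8.48) and at 9.93 in replicate 2, inside the BLT1+/+ range of 9.84 to 10.07. Averaged over the 19 genes and set against the BLT1+/+ mean, the BLT1+/+ lungs spread over -0.33, 0.03 and 0.31 and the BLT1-/- lungs lay at -0.38, -0.12 and -0.43. Without BLT1+/+ replicate 3 the median difference was -0.09 with 3 genes under an unadjusted p of 0.05, and without BLT1+/+ replicate 1 it was -0.40.

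The genes that make and read leukotriene B4 hardly differed. Of 17 measured leukotriene pathway genes, none was called and 13 were lower, with a median difference of -0.02. An unadjusted p under 0.05 was reached by 2, the targeted Ltb4r1 itself (lower) and Ptgr1 (higher). Alox5 (5-lipoxygenase) differed by -0.07 ± 0.09, Alox5ap (its activating protein) by -0.21 ± 0.11 and Lta4h, the hydrolase that makes leukotriene B4, by 0.06 ± 0.08. Ptgr1, a reductase that inactivates leukotriene B4 and prostaglandins, read 10.38, 10.43 and 10.51 in BLT1+/+ lungs and 10.62, 10.60 and 10.84 in BLT1-/- lungs (0.25 ± 0.09). Cyp4f18, the neutrophil enzyme that degrades the same lipid, differed by -0.40 ± 0.21, with BLT1+/+ replicate 3 alone at 10.57 and every other lung at 9.82 or lower. Of 19 prostanoid genes, 3 had an unadjusted p under 0.05: thromboxane synthase Tbxas1 (-0.38 ± 0.12), the thromboxane receptor Tbxa2r (0.25 ± 0.10) and the prostaglandin transporter Slco2a1 (0.22 ± 0.06).

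Interferon-stimulated genes were lower in BLT1-/- lungs as a group, but unevenly between lungs. All 19 measured members were lower, where 47.8% of all genes were, and 14 had an unadjusted p under 0.05. Their median difference was -0.54, and they made up 9 of the 47 genes that were at least 1.5-fold lower. None was called without a block; with the replicate block Isg20, an exonuclease that degrades viral RNA, fell by 0.43 ± 0.07 (adjusted p = 0.0478; 0.141 without it). It read 11.76, 11.98 and 11.97 in BLT1+/+ lungs and 11.36, 11.60 and 11.46 in BLT1-/- lungs.

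Rsad2, the antiviral enzyme viperin, had the largest difference in the group. It read 10.39, 10.56 and 11.34 in BLT1+/+ lungs and 9.37, 10.41 and 8.83 in BLT1-/- lungs (-1.23 ± 0.39, adjusted p = 0.347). Mx2, of the Mx GTPase family, read 7.55, 7.88 and 7.85 against 7.05, 7.51 and 6.78 (-0.65 ± 0.19). The same lung, BLT1-/- replicate 2, was nearest to the BLT1+/+ lungs at both genes. Oasl1, of the oligoadenylate synthetase family, differed by -0.73 ± 0.23, the ubiquitin-like protease Usp18 by -0.69 ± 0.23, and Irf7, a master factor of the interferon response, by -0.44 ± 0.43 with replicate 2 at 10.84, above every BLT1+/+ lung.

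Averaged over the 19 genes and set against the BLT1+/+ mean, BLT1-/- replicates 1, 2 and 3 lay at -0.61, -0.07 and -1.01, the BLT1+/+ lungs at -0.17, 0.04 and 0.12, and the PBS pools at -0.75 (BLT1+/+) and -0.78 (BLT1-/-). BLT1-/- replicate 2 was thus among the BLT1+/+ lungs and the other BLT1-/- lungs were near the PBS pools. The genotypes did not overlap at 5 of the 19 members (6.13% of all genes were lower without overlap). The median difference was -0.36 with 5 genes under an unadjusted p of 0.05 without BLT1-/- replicate 3, and -0.85 with all 19 without replicate 2. Without BLT1-/- replicate 1 or BLT1+/+ replicate 2 or 3, 7 genes had such a p. At day 60 it was -0.28 with none under that p.

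The promoters of 4 members are shown beside these values, chosen among the 7 members in which the element below was found. Each ends at the RefSeq start (GRCm38.p6). Capitals mark the letters GAAA followed, after any 2 bases, by GAAA again, on either strand (so also TTTC, 2 bases and TTTC); this is a short form of the interferon-stimulated response element that the ISGF3 factor binds.
Rsad2, chr12:26456453-26456632, minus strand: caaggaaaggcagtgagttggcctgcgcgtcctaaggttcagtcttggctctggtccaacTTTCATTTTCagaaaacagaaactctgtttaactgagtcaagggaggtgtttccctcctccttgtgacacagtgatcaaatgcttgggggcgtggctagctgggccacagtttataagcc
Ifit1, chr19:34640709-34640888, plus strand: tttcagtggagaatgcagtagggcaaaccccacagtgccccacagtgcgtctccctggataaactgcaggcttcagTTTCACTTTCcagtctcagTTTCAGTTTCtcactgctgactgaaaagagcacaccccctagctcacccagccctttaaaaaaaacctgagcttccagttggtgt
Ifit3, chr19:34583349-34583528, plus strand: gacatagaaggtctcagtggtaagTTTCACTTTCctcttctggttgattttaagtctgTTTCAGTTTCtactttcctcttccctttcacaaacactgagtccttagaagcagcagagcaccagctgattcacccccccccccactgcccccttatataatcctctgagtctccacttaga
Oas3, chr5:120777660-120777839, minus strand: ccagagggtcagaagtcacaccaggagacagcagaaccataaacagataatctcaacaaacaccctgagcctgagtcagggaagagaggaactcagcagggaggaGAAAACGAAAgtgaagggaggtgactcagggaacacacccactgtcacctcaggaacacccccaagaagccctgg

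This element was found in 7 of the 15 members with a promoter sequence (46.7%) and in 3.99% of all genes with one. Ifit1 and Ifit3, which bind foreign RNA and carry the element in duplicate, differed by -0.72 ± 0.28 and -0.40 ± 0.18. Oas3, a sensor of double-stranded RNA with a single match, differed by -0.61 ± 0.26.

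**Figure D3:**
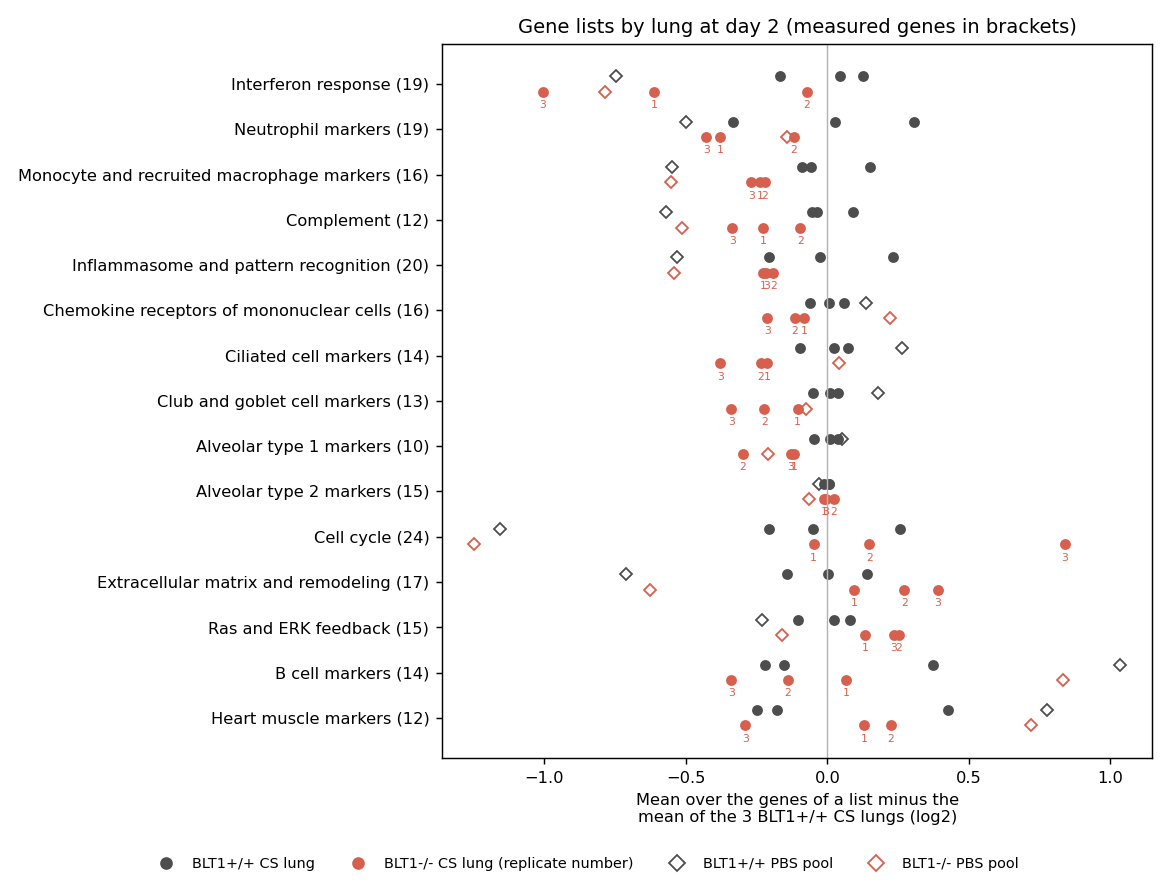
Mean log2 level of 15 gene lists in each day 2 sample, relative to the mean of the 3 BLT1+/+ silica lungs; circles are lungs, diamonds PBS pools. The interferon list spreads from -1.01 to -0.07 over the BLT1-/- silica lungs, the ciliated list lies between -0.38 and -0.21, and the cell cycle list reaches 0.84 in BLT1-/- replicate 3.

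Signals that recruit and activate leukocytes gave no called gene. Tnf, the early macrophage cytokine, read 9.06, 9.71 and 10.42 in BLT1+/+ lungs and 8.91, 8.81 and 8.74 in BLT1-/- lungs (-0.91 ± 0.28, adjusted p = 0.322). Il1a, an interleukin 1 released by damaged and stimulated cells, read 9.71, 10.57 and 11.52 against 9.65, 9.43 and 9.47 (-1.08 ± 0.30, adjusted p = 0.275). At both genes the BLT1-/- lungs lay close together below a wide BLT1+/+ range. Acod1, a chromosome 14 gene that makes itaconate in activated macrophages, and Slfn4, a myeloid Schlafen gene, differed more than any called gene, by -1.40 ± 0.41 and -1.60 ± 0.49, and were named after their values were seen; neither passed (adjusted p = 0.301 and 0.323). For Acod1 the BLT1+/+ lungs again spread, from 11.14 to 12.91, over BLT1-/- lungs at 10.39 to 10.77.

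Neutrophil-attracting chemokines did not share a direction. Cxcl1 differed by 0.19 ± 0.16, Cxcl5 by -0.22 ± 0.21 and Cxcl2 by -0.74 ± 0.49, the last over BLT1+/+ lungs at 10.35, 11.64 and 12.92. The median of the 10 genes was -0.17, and 0.00 without BLT1+/+ replicate 3. The platelet chemokine Ppbp (-0.53 ± 0.21) was the one member with an unadjusted p under 0.05. Of 23 CC and interferon-induced chemokines, 5 had such a p: Cxcl10 (-1.12 ± 0.45), Cxcl11 (-0.33 ± 0.14), Ccl20 (-0.48 ± 0.19) and Ccl4 (-0.59 ± 0.27) were lower, and the T cell chemokine Ccl5 higher (0.24 ± 0.11). The median of the 23 was 0.02; without BLT1+/+ replicate 1 it was -0.14, with 19 of 23 lower and 8 under such a p, and without BLT1-/- replicate 2 or BLT1+/+ replicate 2 or 3 a single gene had such a p. Ccl2, the main monocyte attractant, differed by 0.06 ± 0.31.

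Among the 22 inflammatory cytokines the median difference was -0.01. Besides Tnf and Il1a, Csf1, the macrophage growth factor, differed by -0.32 ± 0.14 and Tgfb1, a driver of repair, by 0.23 ± 0.09. Il1b differed by -0.30 ± 0.34 and Il6 by 0.40 ± 0.27, with the genotypes overlapping at both. Of the 12 acute phase genes, 3 had an unadjusted p under 0.05: ceruloplasmin Cp (-0.23 ± 0.06), haptoglobin Hp (-0.20 ± 0.07) and Lcn2. Saa3, the amyloid protein of the inflamed lung, differed by -0.26 ± 0.22. In the PBS pools it read 8.09 and 8.51, and in the silica lungs 12.74 to 13.43, so its high level was present in both genotypes.

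Macrophage and innate sensing genes leaned lower. All 16 monocyte and recruited macrophage markers were lower in BLT1-/- lungs, 5 with an unadjusted p under 0.05, by a median of -0.23, and the BLT1-/- lungs lay together at -0.24, -0.22 and -0.27 on the list's mean against -0.09, -0.06 and 0.15 in the BLT1+/+ lungs. Without BLT1+/+ replicate 3 the median was -0.20 and 1 gene had such a p, and without the others 2 to 5. Csf1r, the receptor that keeps macrophages alive, read 11.24, 11.03 and 11.08 against 10.94, 10.78 and 10.60 (-0.34 ± 0.09). The macrophage surface protein Adgre1 (F4/80) differed by -0.22 ± 0.09, the high-affinity antibody receptor Fcgr1 by -0.61 ± 0.22 and the endotoxin co-receptor Cd14 by -0.44 ± 0.19.

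Of 20 inflammasome and pattern recognition genes, 18 were lower, 4 with an unadjusted p under 0.05, by a median of -0.19; without BLT1+/+ replicate 1 there were 9, and without replicate 3 there was 1 and the median was -0.10. Tlr2, a receptor for bacterial lipoproteins, differed by -0.49 ± 0.17, Casp4, the caspase that senses endotoxin in the cytosol, by -0.35 ± 0.15, and the inflammasome sensor Nlrc4 by -0.26 ± 0.10. Complement genes had a median of -0.25, with 11 of 12 lower and C1qc, a chain of C1q, at -0.28 ± 0.13. Ccrl2, an atypical receptor that binds chemerin, led the chemokine receptors of mononuclear cells (-0.50 ± 0.13), of which 15 of 16 were lower by a median of -0.12. Alveolar macrophage markers did not lean one way: the median was -0.06, with Itgax (CD11c) at -0.37 ± 0.16, Plet1 at -0.24 ± 0.07 and the fatty acid carrier Fabp4 at 0.51 ± 0.15.

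Airway epithelial genes were lower in BLT1-/- lungs, and by as much in the PBS pools. All 14 ciliated cell markers were lower, 10 with an unadjusted p under 0.05 and 10 with no overlap between the genotypes (6.13% over all genes), and the median difference was -0.27. It was also -0.27 between the PBS pools, where 12 of the 14 were lower, and -0.02 at day 60. None was called. Cdhr3, a cadherin of ciliated cells, read 10.83, 10.90 and 10.89 in BLT1+/+ lungs and 10.41, 10.51 and 10.41 in BLT1-/- lungs (-0.43 ± 0.08, adjusted p = 0.141). The PBS pools read 11.19 and 10.78 for it, a similar gap.

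Dnah9, a heavy chain of the outer dynein arms, differed by -0.36 ± 0.10, Ccdc39, a ruler protein of the axoneme, by -0.35 ± 0.13 and the dynein light chain Dynlrb2 by -0.38 ± 0.14. Gmnc, the switch that starts multiciliated cell formation, not itself on the list, had a larger difference. It read 9.59, 9.67 and 9.37 in BLT1+/+ lungs and 8.85, 8.54 and 8.28 in BLT1-/- lungs (-0.99 ± 0.18, adjusted p = 0.141). Leaving out one lung at a time moved the list's median between -0.20 and -0.35 and the number of genes under an unadjusted p of 0.05 from 3, without BLT1+/+ replicate 2, to 10.

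The 150 bases before the RefSeq starts of Cdhr3 and Dynlrb2 (GRCm38.p6) are shown for GTTGCC, a core of the site bound by RFX factors, which drive cilium genes. Capitals mark its match on either strand.
Cdhr3, chr12:33092876-33093025, minus strand: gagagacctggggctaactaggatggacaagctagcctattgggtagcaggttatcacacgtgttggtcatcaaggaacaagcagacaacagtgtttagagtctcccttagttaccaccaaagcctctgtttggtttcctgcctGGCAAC
Dynlrb2, chr8:116504865-116505014, plus strand: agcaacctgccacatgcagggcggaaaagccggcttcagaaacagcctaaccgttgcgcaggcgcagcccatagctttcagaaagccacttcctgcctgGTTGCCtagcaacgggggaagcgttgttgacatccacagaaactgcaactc

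The core was found in 6 of 11 ciliated cell genes with a promoter sequence (54.5%) and in 14.1% of all genes with one. It was also found in 4 of 15 interferon genes (26.7%).

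Club and goblet cell markers were lower for 12 of 13 genes, 8 with an unadjusted p under 0.05, by a median of -0.21, and by -0.22 between the PBS pools. Without BLT1+/+ replicate 2 the count was 5. Cbr2, a carbonyl reductase of club cells, read 14.22, 14.19 and 14.17 against 14.07, 13.98 and 13.84 (-0.23 ± 0.05). Cyp2f2, the club cell cytochrome, differed by -0.24 ± 0.06, the mucin Muc5b by -0.41 ± 0.11 and the aldehyde dehydrogenase Aldh1a7 by -0.18 ± 0.06. Pigr, which carries immunoglobulin A across the epithelium, fell with the replicate block by 0.57 (adjusted p = 0.0432; 0.163 without it) from 11.54, 11.51 and 11.27 to 10.997, 11.003 and 10.617.

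Alveolar type 1 markers followed, with 9 of 10 lower, 7 of those with an unadjusted p under 0.05, and a median of -0.16 (-0.21 between the PBS pools). Without BLT1-/- or BLT1+/+ replicate 2 the count was 3. Hopx, a homeodomain cofactor, differed by -0.37 ± 0.09, Rtkn2 by -0.46 ± 0.11, the kinase anchor Akap5 by -0.28 ± 0.09 and Ager by -0.15 ± 0.05, whereas the water channel Aqp5 was higher by 0.17 ± 0.06. BLT1-/- replicate 2 was the lowest lung at Hopx, Rtkn2, Akap5 and Ager. The 15 alveolar type 2 markers showed no such shift: their median was -0.00 and they ranged from -0.09 to 0.12.

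Proliferation genes were higher in BLT1-/- lungs, most of all in replicate 3. All 24 cell cycle genes were higher, where 52.2% of all genes were, by a median of 0.31. An unadjusted p under 0.05 was reached by 4 of them (4.71% of all genes were higher at such a p). At day 60 the median went the other way, at -0.18 with 22 of the 24 lower. On the list's mean, BLT1-/- replicates 1, 2 and 3 lay at -0.05, 0.15 and 0.84 and the BLT1+/+ lungs at -0.21, -0.05 and 0.26, so each BLT1-/- lung lay above the BLT1+/+ lung of the same number. Without BLT1-/- replicate 3 the median was 0.03 and 9 of the 24 were lower; it was 0.51 without BLT1-/- replicate 1 and 0.18 without BLT1+/+ replicate 1. The PBS pools lay at -1.16 and -1.25. With the replicate block 18 genes had an unadjusted p under 0.05 (22 with the block in the 6 arrays) and none was called.

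The members with the smallest p belong to DNA replication. Mcm6, a subunit of the replicative helicase, read 9.67, 9.76 and 9.91 in BLT1+/+ lungs and 10.02, 10.10 and 10.35 in BLT1-/- lungs (0.37 ± 0.09, adjusted p = 0.223), with no overlap. Its partners Mcm2 (0.30 ± 0.10) and Mcm3 (0.24 ± 0.10) and the sliding clamp Pcna (0.20 ± 0.08) came next. The mitotic marker Mki67 overlapped, at 10.43, 10.51 and 11.05 against 10.56, 10.82 and 11.59. The Mcm6 promoter, the 150 bases before its RefSeq start (GRCm38.p6), is shown with its CCAAT boxes, bound by NF-Y, in capitals as they read on this strand.
Mcm6, chr1:128359706-128359855, minus strand: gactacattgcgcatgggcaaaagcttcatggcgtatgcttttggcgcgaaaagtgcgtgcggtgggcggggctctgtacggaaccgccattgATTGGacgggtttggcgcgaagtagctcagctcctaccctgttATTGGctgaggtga

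CCAAT was found, on either strand, in 17 of 20 cell cycle genes with a promoter sequence (85%) and in 41.1% of all genes with one. It was also found in 7 of 10 matrix genes (70%) and 7 of 11 ciliated cell genes (63.6%). For interferon genes it was 8 of 15 (53.3%), and for neutrophil markers 7 of 18 (38.9%).

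Matrix genes were also higher. Of 17 extracellular matrix genes, 15 were higher, 7 with an unadjusted p under 0.05, by a median of 0.27 (0.03 between the PBS pools and -0.03 at day 60). The BLT1-/- lungs lay at 0.10, 0.27 and 0.39 on the list's mean and the BLT1+/+ lungs at -0.14, 0.00 and 0.14. Col1a1, a chain of fibrillar collagen I, read 11.40, 11.03 and 11.27 against 11.71, 11.70 and 11.74 (0.48 ± 0.09, adjusted p = 0.141), Col1a2 differed by 0.27 ± 0.07 and Col6a3 by 0.32 ± 0.08. The basement membrane chain Col4a1 read 10.87, 10.85 and 10.79 against 11.15, 11.29 and 11.11 (0.35 ± 0.07). Its partner Col4a2, not on the list, rose by 0.39 with the replicate block (adjusted p = 0.0318; 0.0991 without it). Leaving out one lung at a time kept the list's median between 0.16, without BLT1-/- replicate 3, and 0.33, and gave 4 to 11 genes under an unadjusted p of 0.05, 11 without BLT1-/- replicate 1.

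Fibroblast and smooth muscle markers were mixed, with 10 of 16 higher and a median of 0.07. The mesothelial protein Msln rose with the replicate block by 0.47 (adjusted p = 0.0442, and 0.26 without it). Msln differed by 0.48 between the PBS pools and by -0.31 ± 0.13 at day 60. Cspg4, a pericyte proteoglycan, differed by 0.41 ± 0.12, Des (desmin) by 0.26 ± 0.12 and the matrix proteoglycan Dcn by -0.17 ± 0.06. Of 17 matrix proteases, 12 were higher, with Ctsk (0.35 ± 0.14), Mmp3 (0.42 ± 0.18) and Adamts4 (0.41 ± 0.19) under an unadjusted p of 0.05. The median of the 17 was 0.12, and 0.04 without BLT1+/+ replicate 1; without BLT1+/+ replicate 2 no gene had such a p, and without BLT1-/- replicate 2 or 3 or BLT1+/+ replicate 1 there was 1. Genes that report signaling through Ras and ERK were higher for 13 of 15, 5 with such a p, by a median of 0.16. Between the PBS pools the median of these genes was 0.09 with 12 of 15 higher. At day 60 it was -0.11 with 13 of 15 lower. Leaving out one day 2 silica lung at a time gave medians from 0.13 to 0.22 and 3 to 7 higher genes with such a p. Spry4, a feedback inhibitor of the pathway, differed by 0.43 ± 0.11, Phlda1 by 0.46 ± 0.12, Spred1 by 0.22 ± 0.09 and the growth factor Ereg by 0.99 ± 0.39.

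**Figure D4:**
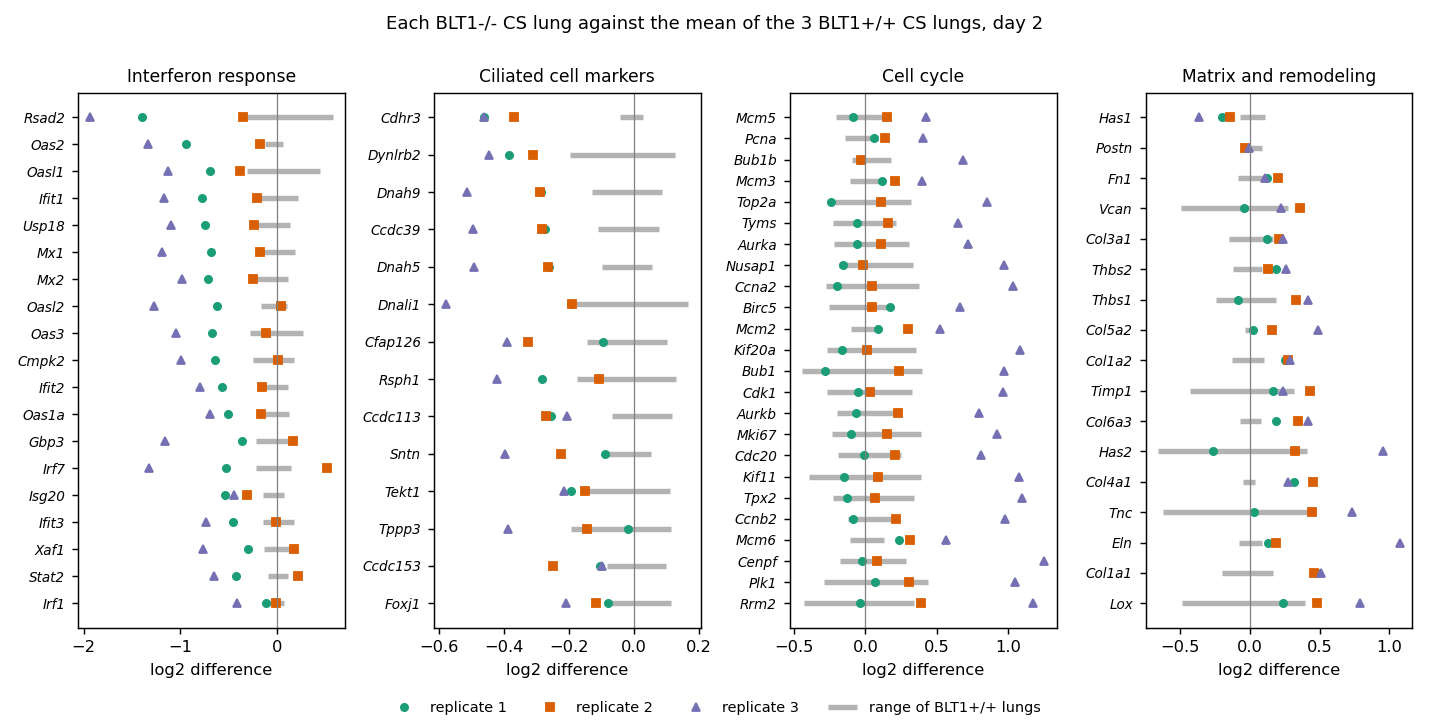
Log2 difference of each BLT1-/- silica lung (points, by replicate) from the BLT1+/+ mean for every measured member of the interferon, ciliated, cell cycle and extracellular matrix lists; grey bars give the range of the 3 BLT1+/+ lungs. Over the lists' means, replicate 2 lies at -0.07 for the interferon genes and replicate 3 at 0.84 for the cell cycle genes, and for 10 of 14 ciliated genes all 3 replicates lie below the grey range.

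Several genes away from chromosome 14 passed with the replicate block and not without it. Gstt1, a glutathione transferase, read 11.55, 11.63 and 11.44 in BLT1+/+ lungs and 11.18, 11.13 and 11.15 in BLT1-/- lungs (-0.38 ± 0.06, adjusted p = 0.075; 0.0432 with the block). Klhl24, a ubiquitin ligase adaptor, held a range of 11.83 to 11.84 in BLT1+/+ lungs and 11.44 to 11.60 in BLT1-/- lungs (-0.34 ± 0.05). The zinc importer Slc39a4 (-0.33 ± 0.05), the phosphoinositide phosphatase Inpp5k (-0.31 ± 0.05) and Dock10 (-0.30 ± 0.05) also fell with the block. Without the block the adjusted p was 0.075 at Klhl24, 0.0818 at Slc39a4 and Inpp5k and 0.141 at Dock10. The PBS pools differed the same way at all 5 genes, by -0.32 at Gstt1, -0.36 at Slc39a4, -0.25 at Dock10, -0.17 at Klhl24 and -0.13 at Inpp5k.

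On the higher side, Tubb2b, a beta tubulin, read 9.19, 9.38 and 9.29 against 9.63, 9.84 and 9.86. It rose with the block by 0.49 ± 0.07 (adjusted p = 0.0432, and 0.0991 without it). Named after their values were seen, Kdelr3, which returns proteins to the endoplasmic reticulum, Ddah2, Ybx3, an RNA-binding cold shock protein, the ubiquitin ligase Rnf126 and Mboat1, a lysophospholipid acyltransferase, also rose with the block, by 0.31 to 0.52. Without the block their adjusted p ran from 0.163 (Rnf126) to 0.352 (Mboat1). The genotypes overlapped at Kdelr3, where a BLT1+/+ lung reached 10.13 and a BLT1-/- lung lay at 10.08, and at Mboat1. The PBS pools differed by 0.37 at Ddah2, 0.36 at Rnf126, 0.15 at Tubb2b, 0.11 at Ybx3, 0.02 at Mboat1 and -0.13 at Kdelr3. The higher genes with the next smallest p did not pass in either fit: Tmem88 (0.41 ± 0.07), a Wnt pathway inhibitor, Armcx4 (0.61 ± 0.11), the histone chaperone Anp32e (0.34 ± 0.06) and the zinc finger gene Zfp979 (0.66 ± 0.13). At day 60 the differences were 0.02 for Tubb2b, -0.04 for Anp32e and -0.01 for Zfp979.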

How the data were processed

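Total lung RNA of 16 mouse samples was hybridised to Affymetrix arrays. The deposited table holds log2 expression values per probe set, which per the submitters' processing notes the authors normalized by RMA in Partek 6.6. The array design, its build and the order of steps are not given in the sources that were at hand. RMA forces the arrays to share a distribution. A lung with more RNA in all would therefore look unchanged, and changes of dim genes are compressed. The number of arrays limits the precision, with a median standard error of 0.0983 for the day 2 difference.

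Of 35556 probe sets, 21789 had 1 gene symbol in the platform annotation, 1621 several and 12146 none; only the first were compared. A gene with several probe sets (999 genes) was represented by the one with the highest mean of all 16 arrays, giving 19938 genes. Chromosomes, gene order and promoter sequences came from RefSeq (GRCm38.p6).

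limma 3.58.1 (R 4.3.3) fitted the means of the 8 groups over the 16 arrays, with lmFit and then eBayes with a trend of variance on level. Tests were two-sided, with Benjamini-Hochberg adjustment over all 19938 genes and a threshold of 0.05. Only the silica lungs give residual degrees of freedom, 8 in all; a PBS pool has none and was assumed to vary like a lung. The code was tested on simulated data. Gene lists (603 distinct genes, 558 measured) are described by counts and medians, with no test of the list. Members and lists were chosen with earlier results of these data known.

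Deviations from group means of same-numbered day 2 lungs correlated across genes at 0.426, 0.200 and 0.345, each above the correlation with any other number, so a fit with the number as a block was read beside the first. The labels give the numbers and do not say what they share.

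Named genes are Ltb4r1 and its neighbours, all genes called, the 10 with the smallest p in a direction with few calls, up to 4 members with the smallest p per list, and a panel of inflammatory genes; others are said to be chosen after their values were seen. The chromosome 14 genes named for recurring on both days, and members shown for their promoters, were also chosen so. Alternatives covered the arrays fitted, the block, normalization, the trend, robust fitting, array weights, a filter on dim genes, the choice of probe set and leaving out each day 2 silica lung and, chosen after seeing the data, 1 day 60 lung.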

Additional observations from a re-analysis of the deposited data

Results flagged for a closer look

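Both results here come from probe sets outside the genes compared, which carry no single gene symbol and so cannot be named. Probe set 10413977, with no symbol, read 8.63, 8.77 and 8.53 in the BLT1+/+ silica lungs and 7.55, 7.74 and 7.67 in the BLT1-/- lungs of day 2, a difference of -0.99 (limma over all probe sets, adjusted p = 0.0231), with -1.11 between the PBS pools and -0.66 at day 60. Probe set 10414537, which the annotation gives to several genes, read 11.96, 11.96 and 11.73 against 11.11, 11.25 and 11.24, a difference of -0.69 (adjusted p = 0.0231), with -0.84 between the PBS pools and -0.67 at day 60. At both, no lung of one genotype reached the range of the other. With the replicate block neither passed (limma over all probe sets, adjusted p = 0.0741 for 10413977 and 0.0663 for 10414537).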

How the results depend on the processing

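The day 2 comparison called 4 genes. It called 2 from the 6 silica arrays alone, 2 from the 8 day 2 arrays and 2 without the mean-variance trend, and with 6 or 8 arrays none of the 4 was among them. The replicate block gave 21, and, chosen after seeing the data, 14 with the 6 arrays and 24 with quantile normalization. Leaving out one lung at a time gave 1 to 6: 1 without BLT1-/- replicate 1 or 2, 2 without BLT1+/+ replicate 2 or 3, and 6 without either remaining lung. Of 22 alternatives, Ddhd1 passed in 20, Tmem260 in 18, Ear6 in 13 and Ngp in 12. With every probe set tested together, also chosen later, Ear6 and Ngp had an adjusted p of 0.115. The day 60 comparison called 8 genes, 14 with array weights, and 5 to 8 without one day 2 lung (5 without BLT1-/- replicate 1 or 2). The cause of these shifts was not tested. The interaction and the difference between days called 0 genes in every limma alternative run; unadjusted counts are given with the results.

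Without one lung the sign turned for a few genes that were not called: Dhrs1 ranged from -0.0898 to 0.00208, Mmp9 from -0.0388 to 0.36, Lta4h from -0.0209 to 0.12, Cxcl1 from -0.0268 to 0.36, Ccl2 from -0.17 to 0.25 and Il1b from -0.80 to 0.14. The block changed no call of the day 2 comparison from called to uncalled. No scaling moved the median of all genes by over 0.1. The share of chromosome 14 genes with an unadjusted p under 0.05 was above that elsewhere in all alternatives of the day 2 comparison over genes, from 10.2% against 6.04% without BLT1-/- replicate 2 to 18.5% against 13.1% with the block in the 6 arrays.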

Other observations

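Antigen presentation and lymphoid genes differed little between the genotypes at day 2. Of 17 dendritic cell and MHC class II genes, 13 were lower in BLT1-/- lungs, by a median of -0.12; it was -0.03 without BLT1-/- replicate 3, and 0.02 with 7 of 17 lower without BLT1+/+ replicate 1. H2-Aa, a class II chain, read 12.92, 12.64 and 12.59 in BLT1+/+ lungs and 12.40, 12.36 and 12.43 in BLT1-/- lungs (-0.32 ± 0.08), and the lectin Cd209a differed by -0.50 ± 0.13. The 14 B cell markers had a median of -0.12, with the antibody receptor Fcer2a at -0.47 ± 0.18 and Vpreb3 at -0.37 ± 0.15. On that list's mean BLT1+/+ replicate 1 stood apart from the others of its genotype, at 0.37 against -0.15 and -0.22, and without it the median was 0.11. The 18 T cell markers had a median of -0.06, and Icos, a costimulatory receptor, differed by -0.32 ± 0.11. Of 14 NK and cytotoxic genes, 11 were higher, by a median of 0.09 (0.01 with 6 of 14 lower without BLT1+/+ replicate 3), with Tbx21, a factor of type 1 lymphocytes, at 0.27 ± 0.09. None of these genes passed the test.

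Transcription factors of the early response were mixed. Among 17 immediate early genes the median was 0.05, with the AP-1 members Jund (0.31 ± 0.09) and Fosl1 (0.46 ± 0.14) higher and the nuclear receptor Nr4a2 (-0.24 ± 0.08) lower. Of 17 NF-kB genes, 4 had an unadjusted p under 0.05: Nfkbiz (-0.27 ± 0.09) and the caspase-8 inhibitor Cflar (-0.16 ± 0.07) were lower, and Bcl3 (0.28 ± 0.12) and the subunit Rela (0.18 ± 0.08) higher. Among 14 circadian clock genes only Tef (-0.22 ± 0.10) had such a p.

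None of the measured members of the heart muscle, skeletal muscle, fat, thymus, thyroid and sex-linked lists had an unadjusted p under 0.05 in the day 2 comparison. Heart muscle markers varied between lungs, at 0.43, -0.18 and -0.25 in BLT1+/+ and 0.13, 0.22 and -0.29 in BLT1-/- lungs, relative to the BLT1+/+ mean. Myh7, a heart and slow muscle myosin that is not on the heart list, differed by 0.79 ± 0.17.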
